A study of Polypedilum vanderplanki with 33 samples.

Results

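Stranded single-exon genes of the sleeping chironomid Polypedilum vanderplanki were followed through drying and rewetting. They are the gene models that carry a plus or minus strand in the deposited annotation and in which every transcript has 1 exon. This rule took 3418 of 28415 gene models, and 18896 stranded models of 2 to 11 exons, called multi-exon genes here, served for comparison. RNA-seq of polyadenylated RNA was done on whole larvae of highly inbred lines reared on agar with milk. No agent, transgene or genotype was labelled, and the groups are defined by the hours of dehydration or of rehydration, over which the labelled batches are spread unevenly. The drying series holds 3 libraries each at 8, 12, 16, 24 and 40 h, 2 each at 0, 1 and 48 h, and single ones at 32 and 36 h. The rewetting series holds 2 each at 0 and 3 h, single ones at 6, 12, 24 and 48 h, and at 1 h 2, of which 1 was used. The larvae at 0 h of dehydration are the undried reference.

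Larvae of this midge are known for anhydrobiosis: they lose nearly all body water, stop their metabolism and resume life when wetted. A gene without introns gives a transcript that needs no splicing before it leaves the nucleus. Replication-dependent histone genes and the Hsp70 heat shock genes are well-known intronless genes of insects. A single-exon model can also be an end or a fragment of a longer gene, or a non-coding transcript. The files do not pair gene IDs with names, so no function is given to any gene below, and which of the models are whole genes was not tested.

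The single-exon genes were split evenly over the strands, with 1745 on plus and 1673 on minus, and lay on 1962 scaffolds. Each had 1 transcript, with a median length of 884 bases, quartiles of 576 and 1397 bases and a range of 191 to 11706 bases. The multi-exon genes had a median exonic length of 1264 bases. A single-exon gene was the only model on its scaffold in 965 cases, or 28.2%, against 8.77% of multi-exon genes. In 420 cases, or 12.29%, the model began at base 1 of its scaffold, against 3.49% of multi-exon genes. It overlapped another model in 861 cases, or 25.2%, against 42.0% of multi-exon genes, and 566 of these genes overlapped a model on the opposite strand. The use of strand in counting is not given in the sources used here, so reads of overlapping, antisense or near-identical models cannot be told apart. Single-exon genes were thus more often alone on a scaffold, or at its first base, than multi-exon genes.

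The 32 libraries used held between 15015674 and 34179203 counts. A batch 2 library, replicate 2 of the 1 h rewetting time, was left out; reads fell on 8035 genes there and on 14232 to 22047 genes in the others. Libraries came in 2 labelled batches, and batch 2 held no library at 0 or 1 h of dehydration or from 6 to 48 h of rehydration. Both single libraries at 32 and 36 h of dehydration came from batch 2. The batch 2 library titled 40 h carries a duration of 48 h in its labels and was counted at 40 h. Whether replicates are separate cultures or animals is not labelled. A p-value therefore reflects the spread between libraries alone, and that spread may be technical. Times with 1 library have no replicate check.

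Most single-exon genes were weakly counted. No count was found over the 32 libraries for 451 of them, or 13.2%, against 3.96% of multi-exon genes. Their median of mean CPM, which scales counts to library size with TMM factors, was 0.232, against 2.65 for multi-exon genes. Genes entered the tests if 2 or more libraries reached a CPM of 1, and 1679 of the 3418 passed, or 49.1%, against 76.4% of multi-exon genes. A gene that passed only through the libraries where it was high had to differ, so all counts below describe these 1679 genes and not the other members. Because the tested single-exon genes had a median of mean CPM of 1.49 and the tested multi-exon genes one of 6.06, the 14431 tested multi-exon genes were weighted over 10 bins of mean CPM to the members' distribution. After weighting their median was 1.49 as well.

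The share of all counts that fell on single-exon genes rose from 8.58% ± 0.246 (SD, n = 2) at 0 h to 18.5% ± 0.556 (SD, n = 2) at 48 h of dehydration. At 1 h the 2 libraries held 9.03% and 12.9%. The share was 14.9% ± 0.314 (SD, n = 3) at 8 h, 16.33% ± 1.196 at 12 h, 17.7% ± 1.06 at 16 h and 16.8% ± 0.866 at 24 h, with 3 libraries each. The single libraries at 32 and 36 h were lower, at 13.3% and 14.5%. At 40 h the share was 17.5% ± 2.75 (SD, n = 3), with 19.9% and 17.97% in batch 1 and 14.5% in the batch 2 library. At 0 h of rehydration it was 17.6% ± 2.21 (SD, n = 2), and the library at 1 h held 17.2%. It then fell to 11.5% ± 1.71 (SD, n = 2) at 3 h, and the libraries at 6, 12, 24 and 48 h held 10.9%, 8.18%, 9.21% and 9.41%. The multi-exon genes took the complementary course, with 82.7% ± 1.76 (SD, n = 4) of counts at 0 and 1 h and 75.6% ± 1.81 (SD, n = 7) in the driest libraries. In bulk larvae, fewer cells of a type and less RNA per cell cannot be told apart.

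**Figure D1:**
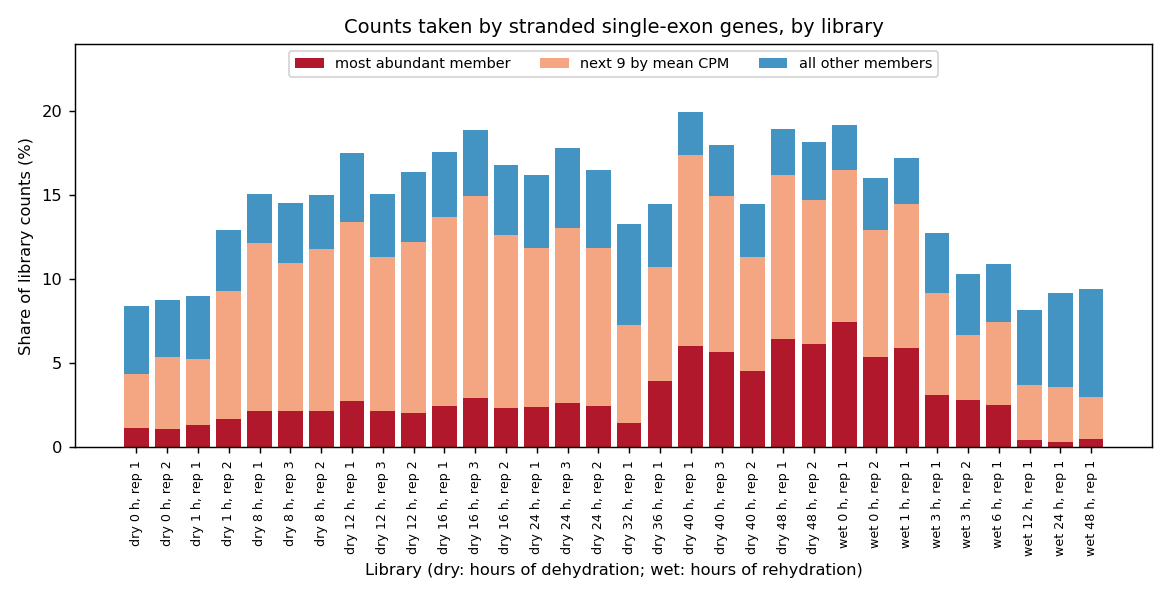
Share of the counts of each library (y axis, percent) taken by stranded single-exon genes, for the 32 libraries in order of time (x axis; dry is dehydration, wet is rehydration). Bars are stacked as the gene of highest mean CPM, the next 9 and all others; the rise in drying lies in the lower 2 parts of the bars, the 10 genes of highest mean CPM, while the share of all others ranges from 2.52% to 6.40%.

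Libraries were grouped into 4 windows for tests: 0 and 1 h of dehydration, 8 to 24 h, the dry window (40 and 48 h with 0 h of rehydration) and 3 to 48 h of rehydration. The exact permutation tests are two-sided, treat libraries of different times as exchangeable and are adjusted over 6 tests. The share was 9.78% ± 2.11 (SD, n = 4) in the early window and 16.4% ± 1.34 (SD, n = 12) from 8 to 24 h, and the groups did not overlap. The exact p was 0.000549, the smallest this design allows, and 0.00117 after adjustment. The dry window stood at 17.8% ± 1.91 (SD, n = 7), which was 1.36 percentage points above the 8 to 24 h window with overlapping libraries (exact permutation p = 0.0846). It was 1.92 points without replicate 2 at 40 h, 1.66 without replicate 2 at 0 h of rehydration and 1.59 without replicate 3 at 16 h, with exact permutation p of 0.0123, 0.0484 and 0.0431. Within batch 1 this difference was 2.42 points (exact permutation p = 0.0141) and within batch 2 it was 0.0473 points (p = 1, exact permutation). From the dry window to 3 to 48 h of rehydration the share fell by 7.68 points to 10.1% ± 1.60 (SD, n = 6; exact permutation p = 0.000583, the smallest possible; adjusted p = 0.00117). Within batch 1 the change was -8.90 points (exact permutation p = 0.00794) and the early rise 6.80 points (exact permutation p = 0.00202). Batch 2 has no library at 0 or 1 h and 1 after 0 h of rehydration, so it gives neither value.

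A few genes carried this course. The 10 single-exon genes of highest mean CPM held 73.8% of all counts on single-exon genes, the first alone 20.7%, and the top 100 held 95.1%. Without these 10, the share rose by 0.26 percentage points from the early window to 8 to 24 h (exact permutation p = 0.378). It then fell by 1.02 points into the dry window (exact permutation p = 0.000576) and rose by 1.59 points after rewetting (exact permutation p = 0.000583). The whole group moved the opposite way at both steps. The 10 were picked by their mean over these same libraries, a mean that favours genes high when dry. A lower dry share of the others is thus partly built in, and these unadjusted p-values cannot decide whether the others fell. All other single-exon genes held 3.70% ± 0.275 (SD, n = 4) of counts in the early window, 3.96% ± 0.539 (SD, n = 12) from 8 to 24 h, 2.94% ± 0.322 (SD, n = 7) when dry and 4.53% ± 1.22 (SD, n = 6) after rewetting. Shares of a library sum to a whole, so these values are not independent of those of the 10.

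Of these 10 genes, 8 rose at 8 h against 0 h and none fell, and 9 rose and 1 fell at 24 h and at 48 h against 0 h (the fall at 48 h was lost with any of the 4 libraries left out), by edgeR's quasi-likelihood test with a Benjamini-Hochberg adjusted p under 0.05 over all 17789 tested genes. Among all tested genes 5.19% rose and 3.07% fell at 8 h, 4.59% and 2.93% at 24 h, and 15.1% and 18.2% at 48 h. Between 0 h of rehydration and 3 h, 9 of the 10 fell, whereas 9.04% of tested genes did. Abundant genes were called more often, so these background shares may be low for genes as strong as the 10. Among multi-exon genes with a mean CPM above 6.85, calls in either direction reached 17.2% for the 8 h comparison. The share was 14.99% for 24 h, 52.9% for 48 h and 35.5% for rewetting. No multi-exon genes of like level were set beside the 10, so their excess over such genes was not tested. Without replicate 2 at 3 h of rehydration 2 of the 10 fell, and in batch 1 alone 1 did; in batch 1 alone 5 rose at 8 h. Of the 4 that rose from 24 h to 40 h, where 10.2% of tested genes rose and 8.76% fell, 1 was left without replicate 1 or 3 at 24 h or replicate 1 at 40 h. Of the 10, 3 lie on scaffold 77936. The genes are ranked by mean TMM-scaled CPM, which differs from their share of counts and is raised in the dry libraries by their low TMM factors. Per kilobase of length the order differs: the gene at scaffold 77936, bases 51401 to 52185, has a mean level of 40376 CPM per kilobase, that of scaffold 6347 20313, that of scaffold 251 10423 and that of scaffold 5445 9735.

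The gene of highest mean CPM is the only model of scaffold 5445, at bases 112 to 3838 on the minus strand. It took 1.16% and 1.12% of counts at 0 h of dehydration and between 2.08% and 2.92% in the 12 libraries from 8 to 24 h. The single library at 32 h held 1.44%, under all of those from 8 to 24 h, and that at 36 h held 3.95%. The gene then took 6.45% and 6.15% at 48 h, and 7.45% and 5.36% as rehydration began. After rewetting it held 5.90% at 1 h, 3.15% and 2.80% at 3 h and 0.427%, 0.325% and 0.502% at 12, 24 and 48 h. The windows, which leave out 32 and 36 h, did not overlap during drying, and the last 3 libraries lay under every library of the undried larvae. In TMM-scaled CPM it rose by 1.13 on the log2 scale at 8 h (SE 0.21, adjusted p = 0.00157, edgeR's quasi-likelihood test), by 3.52 at 48 h (SE 0.24, adjusted p = 3.91e-10) and by 1.63 from 24 to 40 h (SE 0.18, adjusted p = 9.27e-07). It fell by 2.01 on the log2 scale from 0 to 3 h of rehydration (SE 0.23, adjusted p = 5.50e-06). The steps to 48 h, to 40 h and on rewetting passed the threshold in every alternative run, while the rises at 8 and 24 h had adjusted p of 0.263 and 0.108 with DESeq2.

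The gene at scaffold 77936, bases 51401 to 52185 on the plus strand, made most of its rise by 8 h. It took 0.969% and 1.77% of counts at 0 h, 1.21% and 3.35% at 1 h and between 3.65% and 5.41% from 8 to 24 h, which was its highest window by share of counts. At 40 h it held 4.15%, 3.49% and 2.34%, at 48 h 3.17% and 3.33%, while the last rehydration library, at 48 h, held 0.351%. Its log2 fold change was 1.74 at 8 h (SE 0.37, adjusted p = 0.00555) and 2.27 at 48 h (SE 0.40, adjusted p = 0.000196), both against 0 h by edgeR's quasi-likelihood test. From 24 to 40 h it was 0.25 (SE 0.31, adjusted p = 0.644), and from 0 to 3 h of rehydration -1.70 (SE 0.39, adjusted p = 0.00422). The rise at 8 h had an adjusted p of 0.116 without replicate 1 at 0 h, and the fall on rewetting one of 0.0723 without replicate 2 at 3 h. Another model overlaps it on the opposite strand.

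The gene at scaffold 6347, bases 1 to 544, and the neighbours at scaffold 4462, bases 1 to 865 and 888 to 2422, all rose by 48 h. The scaffold 6347 gene measured 1237 and 1870 CPM at 0 h, 35132 and 18119 CPM at 48 h, 30356 and 20087 CPM at 0 h of rehydration, 9402 and 4269 CPM at 3 h and 843 CPM at 48 h of rehydration. Its log2 fold change at 48 h against 0 h was 4.30 (SE 0.46, adjusted p = 6.55e-07, edgeR's quasi-likelihood test). The pair on scaffold 4462 are 22 bases apart on the same strand and are the only models there. The shorter one measured 1605 and 2649 CPM at 0 h and 17785 and 9680 CPM at 48 h (log2 fold change 2.83, SE 0.49, adjusted p = 0.000196). The longer one measured 1015 and 1471 CPM at 0 h and 24704 and 12528 CPM at 48 h (log2 fold change 4.06, SE 0.40, adjusted p = 1.24e-07). From 24 to 40 h the longer one rose by 1.04 on the log2 scale (SE 0.29, adjusted p = 0.0133), while the shorter had a change of 0.44 (SE 0.37, adjusted p = 0.451), and the difference between them was not tested. The call for the longer gene at 40 h was lost without replicate 1 or 3 at 24 h or replicate 1 at 40 h, with adjusted p between 0.0575 and 0.105.

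The gene at scaffold 121, bases 618509 to 620234 on the minus strand, had a shallower course. Its CPM was 4676 and 4104 at 0 h, 9888, 9935 and 9857 at 24 h, 8337 and 6382 at 48 h, 4097 and 2649 after 3 h of rehydration, then 7871 after 48 h. The libraries at 24 h were thus the highest of these, and those at 3 h of rehydration the lowest. It rose by 1.15 on the log2 scale at 24 h (SE 0.25, adjusted p = 0.00432, edgeR's quasi-likelihood test). At 48 h it was up by 0.72 (SE 0.26, adjusted p = 0.0386, same test), a call kept in 8 of 15 alternatives. It fell by 1.14 from 0 to 3 h of rehydration (SE 0.26, adjusted p = 0.00339), which became 0.0734 without replicate 2 at 0 h and 0.112 without replicate 2 at 3 h. The member of the 10 that fell in drying lies at scaffold 2859, bases 108497 to 109877. It took 0.846% ± 0.0975 (SD, n = 4) of counts in the early window, 0.408% ± 0.140 (SD, n = 12) from 8 to 24 h and 0.199% ± 0.0402 (SD, n = 7) when dry. Its log2 fold change at 24 h was -1.10 (SE 0.27, adjusted p = 0.0122); this call was lost without either replicate at 0 h or replicate 3 at 24 h.

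**Figure D2:**
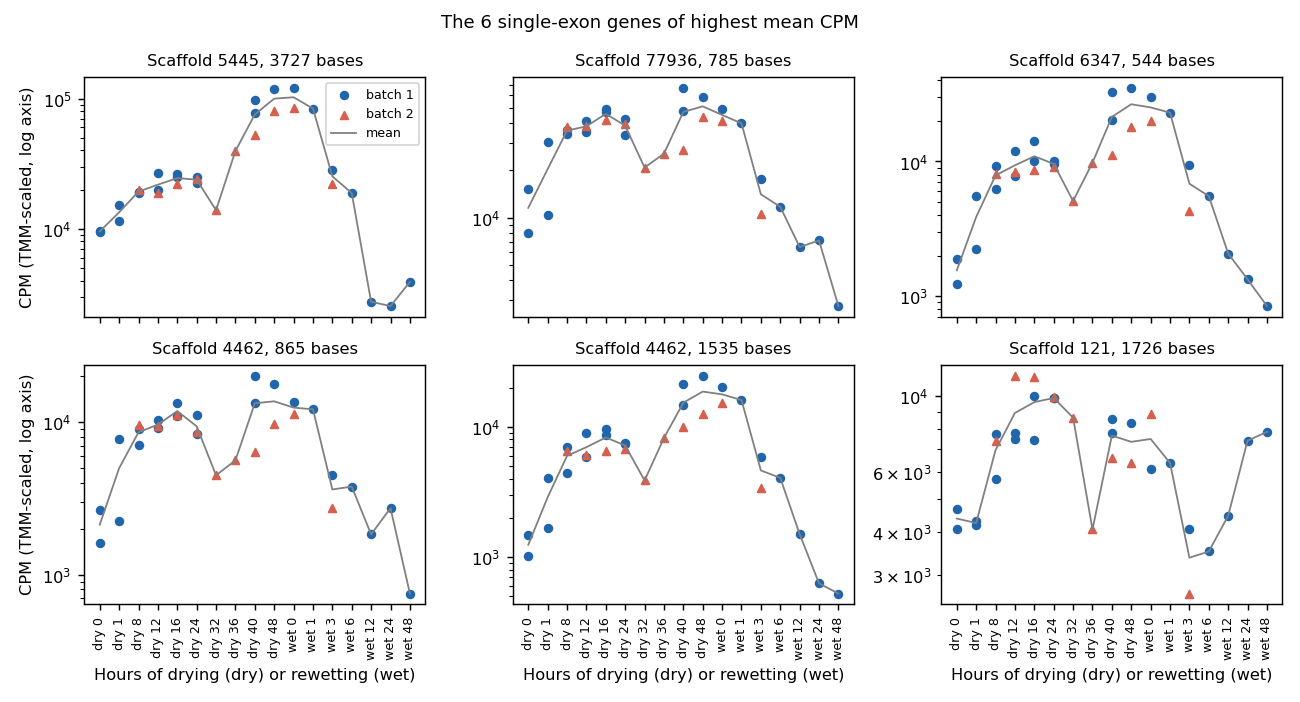
TMM-scaled CPM (y axes, log scale) of the 6 single-exon genes of highest mean CPM against time (x axes), with a point per library, coloured by batch, and a line through the mean of each time. The line of every gene but that of scaffold 121 rises from 32 to 36 h of drying, each a single library, and again to 40 h. The gene of scaffold 121 varies within 2649 to 11503 CPM.

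The typical single-exon gene moved almost as multi-exon genes of like mean CPM did. For each library, the median of log2 CPM of the tested single-exon genes, each centred on its own mean, was compared with the weighted median of multi-exon genes, and the difference is called the relative level. It lay between -0.06 and 0.04 on the log2 scale in all 12 libraries from 8 to 24 h. At 40 h the 3 libraries had relative levels of 0.14, 0.02 and -0.01, at 48 h 0.20 and 0.30. The libraries at 0 h of rehydration had 0.13 and 0.16. After rewetting the values were 0.08 at 1 h, 0.04 and -0.01 at 3 h, -0.10 at 6 h, -0.13 at 12 h, -0.27 at 24 h and -0.02 at 48 h. The members thus stood above like multi-exon genes in 6 of 7 dry libraries and below them in 5 of 6 libraries from 3 to 48 h of rehydration.

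**Figure D3:**
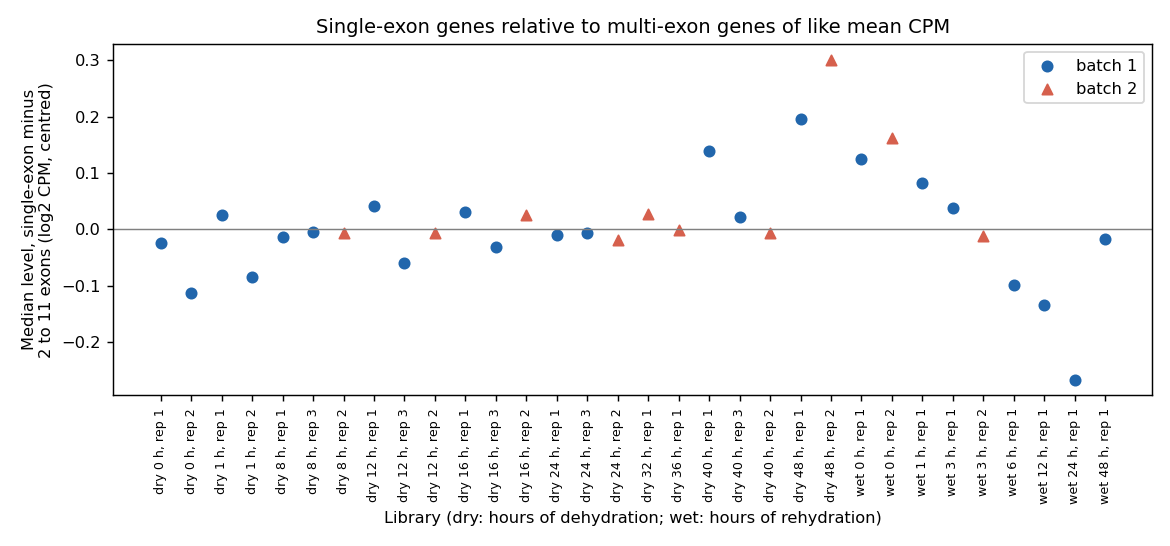
Relative level of single-exon genes (y axis, log2 CPM: their median centred level minus the weighted median of multi-exon genes of like mean CPM) in each library (x axis), with batches by colour and shape. The highest points are the 2 libraries at 48 h of drying, at 0.20 and 0.30, and the lowest is the library at 24 h of rewetting, at -0.27.

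Over the windows the relative level was -0.05 ± 0.06 (SD, n = 4) early, -0.01 ± 0.03 (SD, n = 12) from 8 to 24 h, 0.13 ± 0.10 (SD, n = 7) when dry and -0.08 ± 0.11 (SD, n = 6) after rewetting. The dry window exceeded the 8 to 24 h window by 0.14 (exact permutation p = 0.000576, adjusted p = 0.00117). It was 0.13 within batch 1 (exact permutation p = 0.00606) and 0.15 within batch 2 (exact permutation p = 0.0571). From the dry window to 3 to 48 h of rehydration the relative level fell by 0.22 (exact permutation p = 0.00583, adjusted p = 0.00874), and by 0.22 within batch 1 (exact permutation p = 0.0238). The early step was 0.04 (exact permutation p = 0.0577, adjusted p = 0.0692), so it did not pass the threshold; it was 0.05 without replicate 3 at 12 h (exact permutation p = 0.0322) and 0.07 without replicate 1 at 1 h (exact permutation p = 0.00659). The highest relative level was in replicate 2 at 48 h, which also detected the fewest genes of the 32 libraries, 14232; without it the dry difference was 0.11 (exact permutation p = 0.00156). Genes detected averaged 17478 ± 1957 (SD, n = 7) in the dry window, 19382 ± 857 (SD, n = 12) from 8 to 24 h and 19516 ± 1507 (SD, n = 6) after rewetting, and the TMM factors of the dry libraries were 0.543 to 0.869 against 0.987 to 1.55 in the other 3 windows. Their part in the result was not tested.

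Each tested single-exon gene was assigned to the window of its highest mean level. This was the dry window for 505 genes, or 30.1%, against 25.2% of weighted multi-exon genes. Rehydration was the highest window for 432 single-exon genes, or 25.7%, against 30.6% of weighted multi-exon genes. The early window was highest for 426, or 25.4% against 25.8%, and the 8 to 24 h window for 316, or 18.8% against 18.4%. These shares are a description without a test.

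At 8 h of dehydration against 0 h, 62 single-exon genes rose and 25 fell, which is 3.69% and 1.49% of those tested. Weighted multi-exon genes gave 2.56% and 1.79%. Among all tested genes, whose median of mean CPM was higher, at 4.70, 5.19% rose and 3.07% fell. The median log2 fold change was 0.05 for single-exon genes, which turned to -0.03 with RLE and -0.01 with upper quartile scaling, and -0.02 for weighted multi-exon genes. At 24 h against 0 h, 66 rose and 38 fell, or 3.93% and 2.26%, against 2.32% and 1.70% of weighted multi-exon genes. All tested genes gave 4.59% and 2.93%. The medians were 0.01 for single-exon and -0.05 for weighted multi-exon genes, and the first turned to -0.04 with RLE scaling. Single-exon genes were called more often than weighted multi-exon genes in 20 of 20 settings at 8 h and in 20 of 20 at 24 h, but only in 16 of 19 at 48 h, 8 of 21 from 24 to 40 h and 3 of 19 at 3 h of rehydration. With length matched as well as mean CPM, the shares called were 5.18% against 4.82% at 8 h and 6.19% against 4.58% at 24 h. The 8 and 24 h comparisons share the 0 h libraries, and the settings refit mostly the same libraries, so they are not independent. The numbers rest on replicate 1 at 0 h: without it 23 rose and 8 fell at 8 h, and 30 rose and 18 fell at 24 h. Without replicate 1 or 2 at 8 h the fallers were 13 or 12, and without replicate 1, 2 or 3 at 24 h they were 23, 23 and 25.

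At 48 h of dehydration against 0 h, 185 single-exon genes rose and 223 fell, or 11.0% and 13.3% of those tested. Of weighted multi-exon genes 8.06% rose and 15.01% fell, and of all tested genes 15.1% rose and 18.2% fell. The median log2 fold change was -0.27 for single-exon genes and -0.57 for weighted multi-exon genes, a difference of 0.30. Without replicate 1 at 0 h 143 fell, and without replicate 2 at 48 h 110 fell, while 137 to 161 rose with any library left out. The median over all tested genes was -0.28 with TMM scaling and -0.13 with upper quartile scaling, where 211 single-exon genes rose and 198 fell. By exon number, the weighted medians were -0.48 for genes of 2 exons, -0.67 for 3 to 5 exons and -0.57 for 6 to 11 exons. The median of single-exon genes was thus nearer to 0 than that of each of these classes.

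From 24 h to 40 h of dehydration, 97 single-exon genes rose and 87 fell, or 5.78% and 5.18%, against 5.03% and 6.02% of weighted multi-exon genes. Among all tested genes 10.2% rose and 8.76% fell. The medians were -0.05 for single-exon and -0.15 for weighted multi-exon genes on the log2 scale, the first turning to 0.01 with upper quartile scaling. Without replicate 2 or 3 at 24 h 62 or 56 rose. The fallers were 56 without replicate 3 at 24 h and 57 and 54 without replicates 1 and 3 at 40 h. Between the dry larvae at 48 h and those at 0 h of rehydration no single-exon gene passed the threshold, while 0.00562% of all tested genes rose and 0% fell. Of the single-exon genes, 99 had an unadjusted p under 0.05 by edgeR's quasi-likelihood test, and DESeq2 called none. Without replicate 1 at 48 h, 48 rose and 3 fell, or 3.04% of single-exon genes against 3.56% of weighted multi-exon genes. The 48 h group is then replicate 2 alone, the library with the fewest genes detected, assumed to vary like the other groups.

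From 0 h to 3 h of rehydration, 93 single-exon genes rose and 76 fell, or 5.54% and 4.53%. Among all tested genes 9.84% rose and 9.04% fell, and among weighted multi-exon genes 6.95% and 4.33%. The median log2 fold change was 0.12 for single-exon and 0.29 for weighted multi-exon genes. With upper quartile scaling 82 rose and 103 fell, the members' median turned to -0.05, and the median over all tested genes moved from 0.08 to -0.10. Each of the 4 libraries mattered: without replicates 1 and 2 at 0 h 46 and 55 rose and 33 and 45 fell, and without replicates 1 and 2 at 3 h 51 and 59 rose and 42 and 25 fell.

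**Figure D4:**
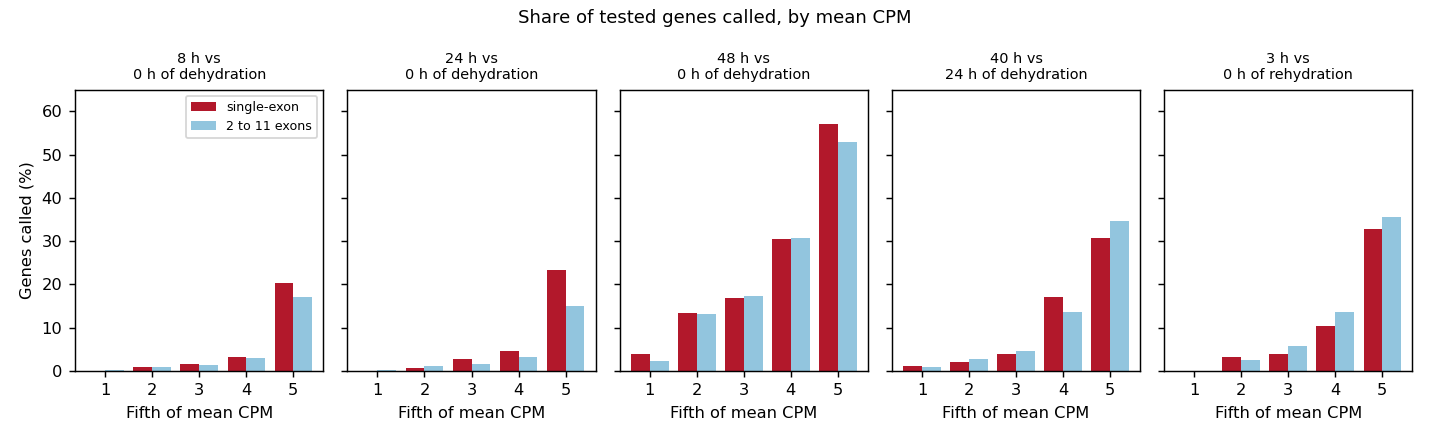
Share of tested genes with an adjusted p under 0.05 (y axis, percent) in each of 5 equal classes of the single-exon genes' mean CPM (x axis, 1 lowest), for single-exon genes and multi-exon genes, in 5 comparisons. Calls concentrate in the top level class for both classes; there 57.1% of single-exon and 52.9% of multi-exon genes were called at 48 h against 0 h of drying.

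The share of genes called went with their level in both classes. In the class of highest mean CPM, above 6.85, 20.2% of 336 single-exon genes and 17.2% of 6865 multi-exon genes were called at 8 h, 23.2% and 14.99% at 24 h and 57.1% and 52.9% at 48 h. At 3 h of rehydration the shares in this class were 32.7% and 35.5%. In the lowest class, between 0.0967 and 0.489 CPM, none of the 336 single-exon genes was called at 8 h, 24 h or 3 h of rehydration, and 13, or 3.87%, were at 48 h. Of the 1225 multi-exon genes of this class, 1 was called at 8 h, 1 at 24 h, 0 at 3 h of rehydration and 28, or 2.29%, at 48 h.

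Of the 5 largest fitted rises at 48 h, 4 were of genes without a count in the libraries at 0 h, and the order of such genes rests on the fitted value and not on their bound. By rule the genes named here changed at least 2-fold with an adjusted p under 0.05, a mean CPM of 5 or more in whichever group was higher, and libraries that did not overlap, which 139 rising and 125 falling genes met. PvG019980, the only model of scaffold 37681 at bases 1 to 713 on the plus strand, had no count in either 0 h library. It measured 0.716 and 0.255 CPM at 1 h, up to 4.03 CPM through 24 h, 2.22 CPM at 32 h, 112 CPM at 36 h, 163, 141 and 193 CPM at 40 h, and 154 and 246 CPM at 48 h. On rewetting it held 190 and 171 CPM at 0 h, 139 at 1 h, 35.9 and 53.4 at 3 h and 1.06 at 48 h. It thus came up between 32 and 36 h of drying and was at 1.06 CPM 48 h after wetting, with no overlap between the dry libraries and those up to 32 h. With 7054 counts at 48 h and a floor of 3 counts over the 0 h group, it was at least 2170-fold higher (adjusted p = 1.58e-08, edgeR's quasi-likelihood test).

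PvG005139, the only model of scaffold 13452 at bases 1 to 1594, had already come up in the single library at 32 h of drying. No count was seen at 0 h, at most 0.853 CPM at 8 h, 3.70, 5.52 and 4.49 CPM at 24 h, 27.1 CPM at 32 h and 43.6 and 29.2 CPM at 48 h. It was at least 402-fold higher at 48 h than at 0 h (adjusted p = 7.00e-07, edgeR's quasi-likelihood test). After wetting it measured 17.3 and 25.8 CPM at 3 h, 28.8 CPM at 24 h and 10.3 CPM at 48 h of rehydration; its change from 0 to 3 h was -0.79 on the log2 scale (SE 0.62, adjusted p = 0.430). The difference between these genes was not tested.

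Another rise from no counts was at scaffold 26634, bases 184 to 1046, with 23.9 and 21.2 CPM at 48 h, at least 248-fold higher (adjusted p = 3.90e-07). At scaffold 2088, bases 181569 to 182826, a gene reached 5.34 and 5.58 CPM, at least 59.7-fold higher (adjusted p = 0.000262). It overlaps a model on the opposite strand. The gene at scaffold 6829, bases 1 to 1123, was measurable throughout, at 0.621 and 1.14 CPM at 0 h, 12.6, 11.7 and 12.0 CPM at 24 h, 13.5 CPM at 32 h, 390 CPM at 36 h and 722 and 598 CPM at 48 h. Its log2 fold change at 48 h was 9.50 (SE 0.53, adjusted p = 7.20e-11), also by edgeR's quasi-likelihood test. Like scaffold 37681, it rose sharply between the single libraries at 32 and 36 h.

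The 5 largest fitted falls all ended at no counts, so their order too rests on the fitted value. PvG003185, at scaffold 123, bases 583025 to 585206 on the minus strand, measured 22.6 and 20.6 CPM at 0 h, 15.4 and 4.43 CPM at 1 h, between 0.928 and 5.69 CPM from 8 to 24 h and none in either library at 48 h. It was at least 484-fold lower at 48 h than at 0 h (adjusted p = 1.74e-07, edgeR's quasi-likelihood test). By 24 and 48 h of rehydration it was at 9.14 and 8.38 CPM, still under its 0 h libraries. PvG032660, at scaffold 801, bases 7602 to 8537, measured 23.4 and 4.39 CPM at 0 h and had no counts at 48 h, at least 298-fold lower (adjusted p = 0.00234). It was at 10.9 and 7.92 CPM at 3 h of rehydration and 35.2 and 29.2 CPM at 24 and 48 h, above both 0 h libraries.

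The next falls by size were at scaffold 5642, bases 7 to 1154, at scaffold 2332, bases 66834 to 68251, and at scaffold 36820, bases 57 to 490. All lost every count at 48 h, being at least 211-fold, 198-fold and 194-fold lower, with adjusted p of 0.00883, 0.00261 and 0.0135 by edgeR's quasi-likelihood test. Their 0 h libraries differed widely, at 14.9 and 4.57 CPM, 2.86 and 13.9 CPM, and 12.0 and 5.62 CPM. Without replicate 2 at 48 h the adjusted p was 0.0660 on scaffold 5642 and 0.0919 on scaffold 36820, and the latter was 0.0670 without replicate 1. The genes of scaffolds 2332 and 36820 overlap a model on the opposite strand.

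**Figure D5:**
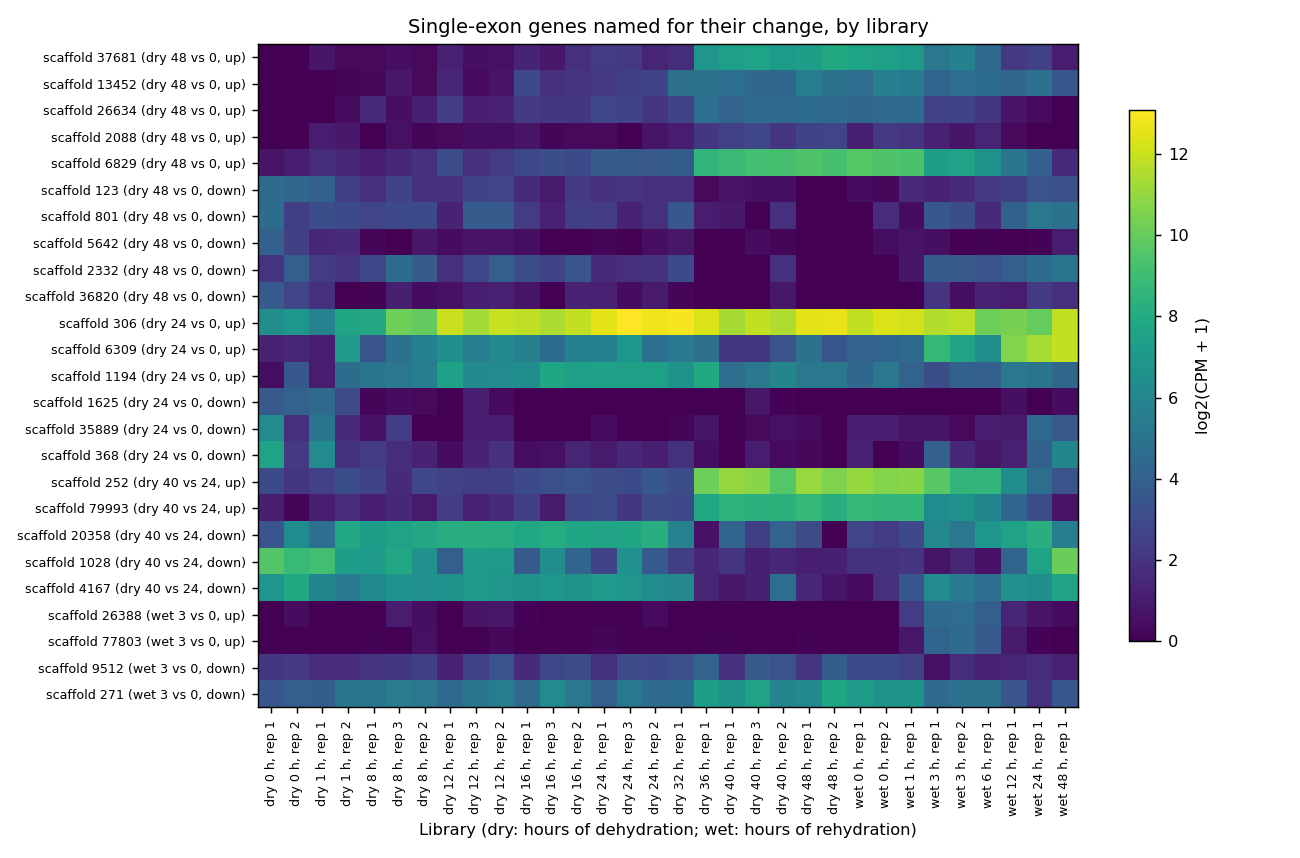
Log2 of TMM-scaled CPM plus 1 (colour) of the single-exon genes named for their change (rows, by scaffold and the comparison that chose them) in the 32 libraries (columns). The genes of scaffolds 37681, 6829, 252 and 79993 are low up to 32 h of drying, high from 36 h on and low again at 48 h of rewetting.

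At 24 h of drying the largest rise among genes that met the same conditions was at scaffold 306, bases 11184 to 12362. Its CPM was 87.5 and 118 at 0 h, 239, 994 and 1158 at 8 h, 5966, 6931 and 8638 at 24 h, 6003 and 6505 at 48 h, then 3057 and 3537 after 3 h of rehydration. The log2 fold change at 24 h was 6.07 (SE 0.70, adjusted p = 8.56e-05, edgeR's quasi-likelihood test), and it was called in 16 of 16 alternatives. It overlaps another model on its own strand, so part of its reads may be shared. No library at 24 or 48 h overlapped those at 0 h.

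The other rises at 24 h were less secure. At scaffold 6309, bases 353 to 1510, the CPM was 1.45 and 1.62 at 0 h, 1.15 and 145 at 1 h and 51.8, 26.4 and 119 at 24 h, with a log2 fold change of 5.39 (SE 1.54, adjusted p = 0.0463). This gene was highest late after wetting, at 1600, 2615 and 3803 CPM at 12, 24 and 48 h. At scaffold 1194, bases 43600 to 45519, it was 0.380 and 11.0 CPM at 0 h and 176, 174 and 171 CPM at 24 h (log2 fold change 4.82, SE 1.25, adjusted p = 0.0290). By edgeR's quasi-likelihood test the adjusted p on scaffold 6309 was 0.0539 to 0.271 with any library of either group left out. On scaffold 1194 it was 0.0506 to 0.146 without replicate 1 at 0 h or any library at 24 h.

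Under the same conditions the largest fall at 24 h was at scaffold 1625, bases 389 to 1155, with 11.6 and 16.34 CPM at 0 h, 22.0 and 6.97 CPM at 1 h, at most 1.11 CPM from 8 to 24 h and no counts in the 3 libraries at 24 h. It was at least 430-fold lower at 24 h (adjusted p = 0.00469, edgeR's quasi-likelihood test), with an adjusted p of 0.108 by DESeq2. It stayed at or under 0.427 CPM after wetting, under every library at 0 and 1 h of drying. The falls at scaffold 35889, bases 3201 to 4651, and scaffold 368, bases 97079 to 98003, rested on replicate 1 at 0 h: their 0 h libraries held 78.7 and 2.46 CPM, and 186 and 3.54 CPM. Without replicate 1 at 0 h the adjusted p was 0.382 and 0.881, and without any of the libraries at 24 h it was 0.0811 to 0.117 and 0.135 to 0.156. The scaffold 35889 gene overlaps another model on its strand.

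From 24 to 40 h the largest rise under these conditions was at scaffold 252, bases 1035171 to 1037517 on the minus strand. It stayed between 1.93 and 10.7 CPM through 24 h, was 7.93 CPM at 32 h and 1186 CPM at 36 h, then 2038, 800 and 1718 CPM at 40 h and 2158 and 1490 CPM at 48 h. After wetting it was 848 and 395 CPM at 3 h and 9.32 CPM at 48 h. Its log2 fold change from 24 to 40 h was 7.49 (SE 0.53, adjusted p = 3.66e-08, edgeR's quasi-likelihood test). It overlaps another model on its strand. A gene at scaffold 79993, bases 1 to 384, went from 7.35, 7.08 and 3.18 CPM at 24 h to 354, 337 and 312 CPM at 40 h (log2 fold change 5.82, SE 0.70, adjusted p = 2.93e-05). PvG019980 came next, with a log2 fold change of 5.78 (SE 0.50, adjusted p = 3.82e-07). These 3 rises were called in 17 of 17 alternatives each.

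The largest falls from 24 to 40 h under these conditions were at scaffold 20358, bases 14 to 622, scaffold 1028, bases 294894 to 295897, and scaffold 4167, bases 34999 to 37352. The scaffold 20358 gene measured 195, 305 and 207 CPM at 24 h, 55.6 CPM at 32 h, 0.559 CPM at 36 h and 17.9, 16.27 and 4.38 CPM at 40 h (log2 fold change -4.20, SE 1.06, adjusted p = 0.0120, edgeR's quasi-likelihood test; 0.0514 without replicate 3 at 40 h). The scaffold 4167 gene measured 136, 82.5 and 113 CPM at 24 h and 0.838, 25.7 and 1.25 CPM at 40 h (log2 fold change -3.88, SE 0.98, adjusted p = 0.0120). It was at 77.0 and 42.9 CPM at 3 h of rehydration and 195 CPM at 48 h, back within the range of the undried larvae. The scaffold 1028 gene measured 771 and 472 CPM at 0 h but 5.36, 11.8 and 97.4 CPM at 24 h and 3.06, 1.63 and 1.19 CPM at 40 h, and it returned to 1143 CPM at 48 h of rehydration. Its call (log2 fold change -4.18, SE 1.22, adjusted p = 0.0259) was lost without replicate 3 at 24 h, at 0.214, or without any library at 40 h, at 0.0622 to 0.0980. The genes of scaffolds 1028 and 4167 overlap another model on their strand.

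On rewetting the 3 largest fitted rises under these conditions were of genes with no count at 0 h. The gene at scaffold 77803, bases 2468 to 3644, had no count at 0 h of rehydration or at 0 or 1 h of dehydration, at most 0.479 CPM during drying, 0.814 CPM at 1 h of rehydration, 17.7 and 22.9 CPM at 3 h, 12.4 CPM at 6 h and 0.955 CPM at 12 h. It was at least 351-fold higher at 3 h than at 0 h of rehydration (adjusted p = 0.00280, edgeR's quasi-likelihood test), with 0.132 by DESeq2. At scaffold 26388, bases 202 to 1081, a gene had a like course, with 3.84 CPM at 1 h, 22.4 and 24.08 CPM at 3 h, 14.6 CPM at 6 h and 1.58 CPM at 12 h. It was at least 400-fold higher at 3 h (adjusted p = 0.0228), and 0.0520 to 0.129 without any of the 4 libraries. Outside 1 to 12 h of rehydration neither gene passed 1.08 CPM in any library. Next came the gene of scaffold 2332 above, at 11.9 and 11.6 CPM, at least 201-fold higher (adjusted p = 0.00612; 0.0633 without replicate 2 at 0 h).

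The 3 largest falls on rewetting under these conditions were of genes that kept some counts at 3 h; a called gene outside them had a fitted log2 fold change of -6.85. The gene of scaffold 6829 fell from 781 and 723 CPM to 153 and 183 CPM (log2 fold change -2.17, SE 0.37, adjusted p = 0.000443, edgeR's quasi-likelihood test). At scaffold 271, bases 156349 to 166789, a gene fell from 146 and 100 CPM to 23.0 and 28.6 CPM (log2 fold change -2.25, SE 0.70, adjusted p = 0.0349). At scaffold 9512, bases 132 to 1000, a gene fell from 6.69 and 6.55 CPM to 0.511 and 2.32 CPM (log2 fold change -2.50, SE 0.77, adjusted p = 0.0243). Leaving out a library ended the last call except for replicate 2 at 0 h, with adjusted p of 0.0501 to 0.231. On scaffold 271 any library left out gave 0.0689 to 0.210.

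Drying and rewetting were also compared gene by gene, since 48 h against 0 h of dehydration and 3 h against 0 h of rehydration share no library. Of the 185 single-exon genes that rose by 48 h, 48 fell and 5 rose in the first 3 h of rewetting, and 159 had a negative log2 fold change. These 48 are 25.9% of the risers and 63.2% of the 76 genes that fell on rewetting. Of the 223 that fell by 48 h, 51 rose and 5 fell on rewetting, which is 22.9% of the fallers in drying and 54.8% of the 93 that rose on rewetting. Among multi-exon genes, not weighted by level, 38.7% of the risers and 29.8% of the fallers had an opposite call. These made up 61.4% of the multi-exon genes that fell on rewetting and 54.0% of those that rose, close to the shares of single-exon genes. Over all tested genes 9.84% rose and 9.04% fell on rewetting.

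Calls were also counted by position on the scaffold. Of the 574 tested single-exon genes that are the only model on their scaffold, 66 rose and 47 fell at 48 h against 0 h, with a median log2 fold change of 0.07. Of the 641 with a same-strand model within 1000 bases, 67 rose and 118 fell, with a median of -0.67. Over all tested genes 15.1% rose and 18.2% fell in this comparison. The 1193 that overlap no other model had 126 up and 143 down, and the 486 that overlap another had 59 up and 80 down. From 24 to 40 h, where 10.2% of all tested genes rose and 8.76% fell, the sole models had 41 up and 13 down. Those near a same-strand model had 26 up and 52 down. The shares called either way were 9.41% and 12.2%. At 3 h of rehydration, where 9.84% of all tested genes rose and 9.04% fell, the sole models had 14 up and 24 down. Those near a same-strand model had 45 up and 38 down. Here 6.62% and 12.9% were called either way. These subsets had close medians of mean CPM, 1.63 and 1.53, and no test of the difference was made.

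For some called single-exon genes the nearest same-strand model within 1000 bases was a tested multi-exon gene. At 48 h against 0 h, where 15.1% of tested genes rose and 18.2% fell, this held for 41 of the rising single-exon genes, of which 24 had a neighbour that also rose and 3 a neighbour that fell. For 68 of the falling genes, 21 neighbours fell and 9 rose. From 24 to 40 h, where 10.2% of tested genes rose and 8.76% fell, 7 of 20 neighbours of rising genes rose. In that comparison 4 of 31 neighbours of falling genes fell, and the opposite calls were 0 and 2. On rewetting, where 9.84% of tested genes rose and 9.04% fell, 10 of 20 such neighbours of falling genes fell and 8 of 30 neighbours of rising genes rose, with 0 and 1 opposite calls. Whether such pairs are parts of the same transcript was not tested.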

How the data were processed

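Per gene and library of whole larvae, the authors deposited read counts as whole numbers without normalization, and the positions of their gene models, whose source column names SAJR per the file headers. TopHat2 was the aligner, per the submitters' processing notes. Its version, the build, and how reads were counted or strand was used are not given in the sources used here. Positions are counted from 1 on the deposited scaffolds. None of the gene IDs occurs in the RefSeq gene table used here.

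The members, gene lists, windows and comparisons were chosen with earlier results of these data known. From the counts, genes that reached a CPM of 1 in 2 or more libraries were fitted with edgeR 4.0.16 (R 4.3.3, limma 3.58.1): TMM scaling, a coefficient per time, a batch term, and the quasi-likelihood test with Benjamini-Hochberg adjustment over 17789 genes. All 32 libraries entered the fit and shared an estimate of spread. Log2 CPM used a prior count of 2. Exon number is the largest count of exon lines in any transcript. Multi-exon genes were weighted over 10 bins at deciles of the members' mean CPM. Fold bounds set a group with no counts to 3 counts over its libraries relative to their total counts; floors cover counting error only. CPM in the text is TMM-scaled. Named genes were, by ID, the 2 largest rises and 2 largest falls at 48 h, and by position the next 3 each way, the 3 largest each way in 3 other comparisons and the 6 of highest mean CPM. Others were named after their values were seen: the genes of scaffolds 2859 and 251 among the 10. Counts of replicates differed by a chi-square per degree of freedom of at least 37.7, so no library was counted as a duplicate. Alternatives included DESeq2 1.42.0, other scalings, filters, bins, batches and each library left out. The fit was tested on simulated counts.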

Additional observations from a re-analysis of the deposited data

Results flagged for a closer look

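Within the 0 and 1 h libraries of dehydration, the share of counts on single-exon genes was 12.9% in replicate 2 at 1 h, while the other 3 libraries held between 8.41% and 9.03%. The gap is larger than Dixon's 95% limit for a group of this size allows; 6 groups were examined, and chance alone marks about 1 group in 20. The same library held 9.33% of its counts on the 10 genes of highest mean CPM, against 4.38% to 5.37% in the other 3. Without it the rise to 8 to 24 h was 7.72 percentage points instead of 6.67.

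In the library left out, replicate 2 at 1 h of rehydration, single-exon genes held 18.6% of counts, near the 17.2% of replicate 1 at that time. The libraries at 0 h of dehydration held 8.41% and 8.75%. The gene of scaffold 5445 took 0.752% of counts there, against 5.90% in the other library of that time, and 6.84% fell outside the 10 genes of highest mean CPM, against 2.77%. This library detected 452 single-exon genes, whereas its counterpart detected 1643.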

How the results depend on the processing

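Leaving out a library gave 23 to 63 single-exon genes up and 8 to 32 down at 8 h against 0 h, 30 to 64 and 18 to 39 at 24 h, 137 to 161 and 110 to 242 at 48 h, 56 to 90 and 54 to 129 from 24 to 40 h, 0 to 48 and 0 to 3 from 48 h to 0 h of rehydration, and 46 to 59 and 25 to 45 from 0 to 3 h of rehydration. The difference of medians from weighted multi-exon genes then ranged over 0.017 to 0.12, 0.024 to 0.13, 0.22 to 0.32, 0.05 to 0.13, -0.07 to -0.05 and -0.23 to -0.13 on the log2 scale in the same order. The share of counts changed by 6.21 to 7.72, 1.01 to 1.92 and -8.23 to -7.28 percentage points over the 3 window steps, and the relative level by 0.023 to 0.069, 0.11 to 0.16 and -0.24 to -0.18. DESeq2 called 97 up and 56 down at 8 h, 67 down at 24 h, 155 down from 24 to 40 h and 157 up at 3 h of rehydration. With all 33 libraries the calls up and down were 15 and 4 at 8 h, 26 and 10 at 24 h, 94 and 100 at 48 h, 13 and 16 from 24 to 40 h and 11 and 1 at 3 h of rehydration. Batch 1 alone, with fewer samples, gave 26 and 10 at 8 h, 33 and 24 at 24 h, 105 down at 48 h with a difference of 0.25, 62 up from 24 to 40 h, 45 and 15 at 3 h of rehydration, and a dry share 2.42 points above 8 to 24 h; batch 2 alone gave a relative level 0.15 higher when dry (exact permutation p = 0.0571). Fitting only the 2 groups gave 65 down at 24 h, 100 and 101 at 48 h, and differences of 0.012 at 8 h, 0.22 at 48 h and -0.27 at 3 h of rehydration. Without a filter on low counts the differences were 0.0060 at 24 h, 0.0091 from 24 to 40 h and -0.089 at 3 h of rehydration, and with the conflicting library moved to 48 h the difference there was 0.22. Among genes with no overlap, which are fewer, 16 fell at 8 h, 22 at 24 h, 143 at 48 h and 52 from 24 to 40 h, and 54 rose and 49 fell at 3 h of rehydration; the differences were 0.48 at 48 h, 0.17 from 24 to 40 h and -0.30 at 3 h of rehydration, and the dry share was 3.399 points above 8 to 24 h. Without the 10 genes of highest mean CPM the share steps were 0.26, -1.02 and 1.59 points, and without the library of conflicting labels the dry step was 1.92. The early step of the relative level passed the threshold in some settings, listed here with the size of the step on the log2 scale. They were genes with no overlap (0.058), total counts alone (0.058), a CPM of 1 in 8 libraries (0.059) and a prior count of 0.5 (0.050). Except where a smaller set of genes or samples is named, the cause was not tested. Samples with the same replicate number shared little beyond it, with a median correlation of 0.0668 over 56 pairs and 13 above 0.1, and a replicate block moved the fallers at 8 h to 38. The share of genes called was lowest in the class of lowest mean CPM; depth itself was not varied.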

Other observations

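The single library at 32 h of dehydration combined a low share of counts on the 10 genes of highest mean CPM, 7.28%, with 6.00% on all other single-exon genes, which was exceeded among the 32 libraries only by the library at 48 h of rehydration, at 6.40%. In the same library 9.10% of counts fell on gene models without a strand, against 0.260% to 2.97% in the other 31. Its part in the share of single-exon genes was not tested, and that time has no replicate.

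Single-exon genes of at least 2000 bases had 48 risers and 43 fallers among 301 tested at 48 h against 0 h of dehydration, and those under 500 bases 21 and 20 among 233, with medians of mean CPM of 2.14 and 1.09; over all tested genes 15.1% rose and 18.2% fell. Of the 19 single-exon genes with a mean CPM of at least 1000, 12 rose and 2 fell at 48 h against 0 h, and 12 fell and none rose from 0 to 3 h of rehydration. Over all tested genes 9.84% rose and 9.04% fell on rewetting. Calls were more frequent among abundant genes: of multi-exon genes with a mean CPM above 6.85, 52.9% were called either way at 48 h and 35.5% on rewetting.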
